A study of Mus musculus with 8 samples.

Results

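The genes described here are 38 listed genes of glucose breakdown and of the response to low oxygen, out of 16091 genes in the deposited expression table. They were chosen by symbol, as glycolytic enzymes, glucose and lactate transporters, and genes known as targets of hypoxia-inducible factor (HIF). All 38 were in the table, and Eno1 was summed with its near-identical copy Eno1b, which left 37 rows, all of which passed the filter on low values. Total RNA was sequenced from whole mouse corneas of 2 genotypes, 4 Opn5-null (Opn5-/-) and 4 wild-type, and each library is named by its genotype and the letter A, B, C or D of its title. All 8 titles also hold the word Light, which no label used here explains. Corneas of both genotypes had their epithelium scraped off 12 hours before they were frozen, so no unwounded cornea was part of the comparison. Opn5 encodes neuropsin, a light-sensitive opsin, and its own level was not analysed here. The age of the mice, their strain, the construction of the Opn5 allele and the number of corneas in a library were not given in any source used here.

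Glycolysis splits glucose into pyruvate in the cytosol and yields ATP without oxygen. Glucose enters through transporters of the SLC2A family, hexokinase traps it as glucose 6-phosphate, phosphofructokinase commits it to breakdown, and lactate leaves through SLC16A transporters. When oxygen is short, prolyl hydroxylases of the EGLN family no longer mark HIF-1α for destruction, and HIF then binds short response elements near genes for these same steps. The cornea has no blood vessels of its own, its epithelium relies largely on glycolysis, and neutrophils, which enter a wounded cornea within hours, are also strongly glycolytic.

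Promoters of 4 members are shown because they carry the letters of the core of a hypoxia response element and because their genes differ in response: Slc2a1, Slc16a3 and Bnip3 rose in the Opn5-null corneas and Ldha did not pass the test. Each runs from 250 bases before to 50 bases after the RefSeq start on GRCm38.p6, 5′ to 3′ on the strand of the gene, and capitals mark ACGTG on either strand. The windows are chr4:119108495-119108794 (plus strand) for Slc2a1, chr11:120948817-120949116 (plus strand) for Slc16a3, chr7:138909457-138909756 (minus strand) for Bnip3 and chr7:46845554-46845853 (plus strand) for Ldha.
Slc2a1: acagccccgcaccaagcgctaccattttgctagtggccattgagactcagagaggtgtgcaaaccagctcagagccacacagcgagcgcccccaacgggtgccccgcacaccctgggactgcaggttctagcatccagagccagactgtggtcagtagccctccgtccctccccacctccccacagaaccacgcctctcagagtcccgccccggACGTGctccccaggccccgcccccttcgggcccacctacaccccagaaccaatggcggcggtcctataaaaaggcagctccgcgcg
Slc16a3: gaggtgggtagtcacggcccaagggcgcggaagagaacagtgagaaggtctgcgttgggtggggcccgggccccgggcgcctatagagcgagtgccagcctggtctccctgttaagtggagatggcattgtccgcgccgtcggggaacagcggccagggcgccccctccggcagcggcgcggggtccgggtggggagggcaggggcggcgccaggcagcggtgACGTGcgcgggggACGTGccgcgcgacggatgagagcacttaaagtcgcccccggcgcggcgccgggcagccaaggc
Bnip3: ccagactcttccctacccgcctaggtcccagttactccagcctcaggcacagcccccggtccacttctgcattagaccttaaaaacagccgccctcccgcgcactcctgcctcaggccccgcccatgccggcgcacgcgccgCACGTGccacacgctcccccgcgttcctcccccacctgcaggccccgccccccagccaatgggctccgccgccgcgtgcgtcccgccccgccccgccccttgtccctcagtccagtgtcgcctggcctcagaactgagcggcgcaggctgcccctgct
Ldha: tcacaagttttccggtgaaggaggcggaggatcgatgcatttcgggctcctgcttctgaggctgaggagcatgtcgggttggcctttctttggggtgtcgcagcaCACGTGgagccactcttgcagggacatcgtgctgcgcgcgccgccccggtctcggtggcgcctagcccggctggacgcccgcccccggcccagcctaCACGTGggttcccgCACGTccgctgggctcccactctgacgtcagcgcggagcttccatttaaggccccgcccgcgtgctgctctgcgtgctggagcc
The Slc2a1 window holds ACGTG 1 time, the Slc16a3 window 2 times, the Bnip3 window 2 times and the Ldha window 5 times. The palindrome CACGTG was counted on both strands. The single palindrome of Bnip3 therefore accounts for both of its matches, and the 2 palindromes of Ldha account for 4 of its 5. Of the 38 members, 34 matched the RefSeq promoter table, Ero1l under its newer symbol Ero1a. The letters ACGTG were found, in any of a gene's windows, in 23 of these 34 (67.6%), against 21.8% of 27025 genes in the table. The letters GCGTG were also found in 23 of 34 (67.6%), against 35.2% of the 27025 genes. ACGTG was present in 16 of the 21 matched members that rose and in 7 of the 13 others, and the counts for GCGTG were again 16 of 21 and 7 of 13. A match is a description of letters and not a binding site, and many members were listed because they are HIF targets.

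Of the 37 member rows, 23 (62.2%) were called higher in Opn5-null corneas, against 18.8% of all 16084 genes tested (limma on log2(value + 1), Benjamini-Hochberg adjusted p below 0.05). Aldoc was the 1 member called lower (2.7%), against 13.5% of all genes, and 13 members were not called. All 4 Opn5-null libraries lay above all 4 wild-type libraries in 24 members (64.9%), against 20.3% of all genes. The median log2 fold change of the members was 0.57, against -0.02 for all genes. Of all calls, 58.2% were higher, and 40.4% and 40.8% were higher under quantile and upper-quartile scaling, which placed the median of all genes at -0.13. Under these 2 scalings 21 members were called higher, with 3 and 2 lower. The labels do not state that each library is a different mouse. What the p-values weigh is variation among these 8 libraries, and it may be technical. That variation was larger among Opn5-null libraries. Chi-square per gene, which measures how far the reads of a pair of libraries differ, was 45.9 to 199 in Opn5-null pairs and 10.4 to 30.4 in wild-type pairs. The limma fit pooled the variance of a gene over both genotypes. In whole corneas, fewer cells of a type and less RNA per cell cannot be told apart.

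Recovered reads per library ranged from 21111715 to 28219234. The libraries differed in cell markers as well as in genotype. The summed level of 14 neutrophil markers, led by S100a9, S100a8, Clec4d and Csf3r, was 60561 to 201407 normalized counts in Opn5-null libraries and 20444 to 38515 in wild-type libraries, and 12 of the 14 were called higher. The summed level of 14 monocyte and macrophage markers was 42039 to 113477 in Opn5-null libraries and 10313 to 16015 in wild-type libraries, with 10 of 14 higher, and no marker of either list was at 0 in any library. The summed level of 12 corneal epithelial markers was 99425 to 422073 in Opn5-null libraries, lowest in Opn5-null D, and 540737 to 704595 in wild-type libraries, with 4 of 12 lower. The summed level of 9 keratocyte markers overlapped, at 140278 to 195835 in Opn5-null, against 143587 to 167401 in wild-type libraries, with 3 of 9 called higher (33.3%) and 1 lower (11.1%). Dcn, Lum and Col1a1, markers of the stroma, were present in every library, and of these Lum was called higher (log2 fold change 0.71, adjusted p = 0.0116, limma). The marker called lower was Angptl7 (log2 fold change -2.34, adjusted p = 0.003, limma). Of 10 lens markers, 8 were called lower (80%). Among all genes, 18.8% were called higher and 13.5% lower. Called higher were 85.7% of the neutrophil and 71.4% of the monocyte and macrophage markers, and called lower were 33.3% of the epithelial markers. The part of these markers in the results below was not tested.

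**Figure D1:**
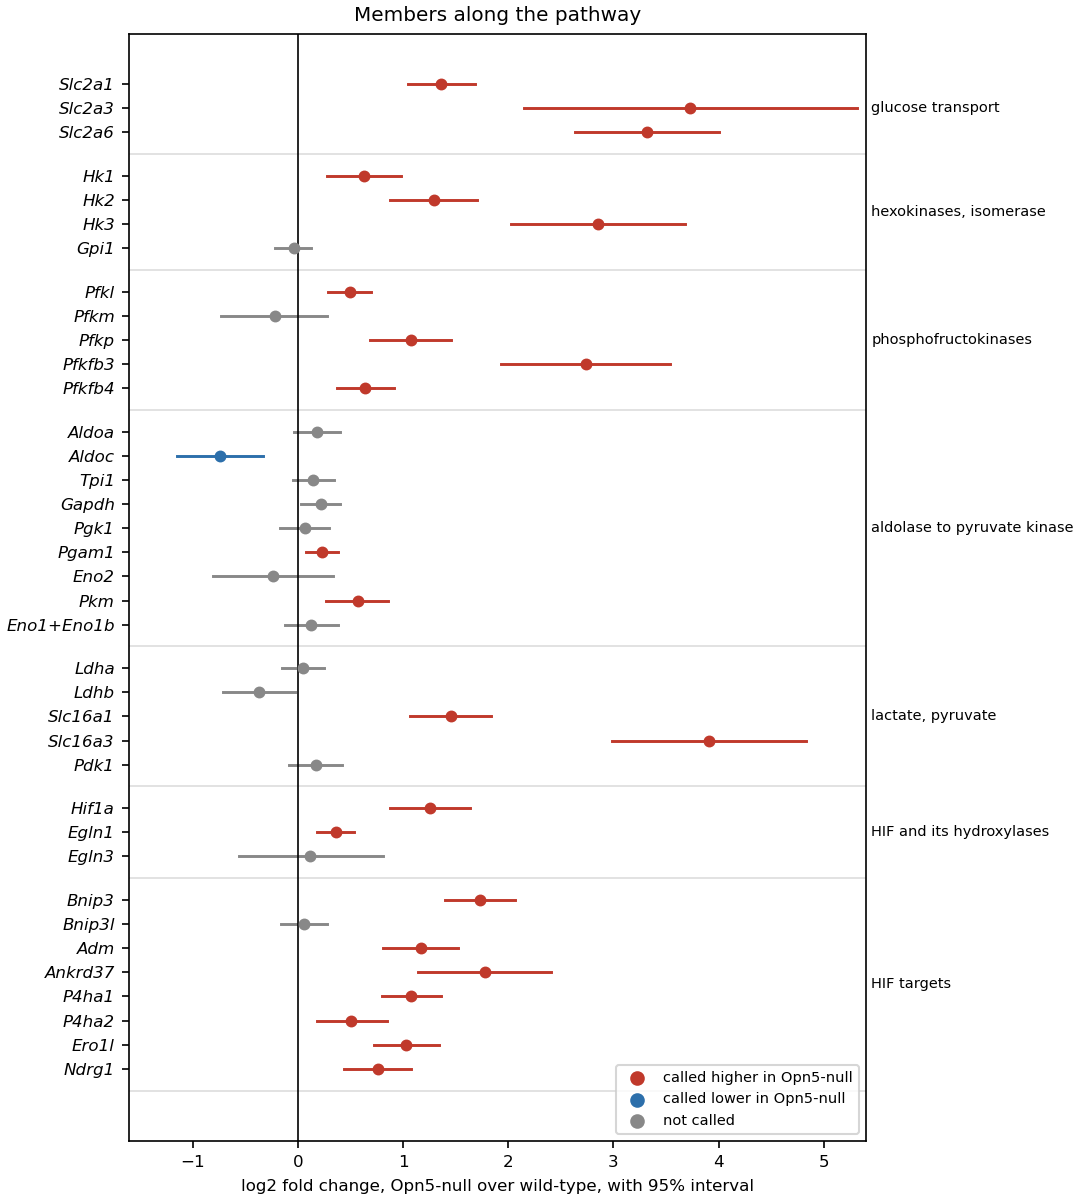
Log2 fold change of each member, Opn5-null over wild-type, on log2(value + 1), with its 95% interval from limma (n = 4 libraries each), grouped by role from top to bottom. Red marks members called higher, blue the member called lower and grey those not called. The 3 glucose transporters lie at 1.36 to 3.73 and the lactate transporter Slc16a3 at 3.91, while Gpi1, Ldha and Pgk1 lie at -0.04 to 0.07.

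All 3 glucose transporters listed rose in Opn5-null corneas (100%, against 18.8% of all genes), with a median log2 fold change of 3.32. Slc2a1 encodes GLUT1, the broadly expressed basal glucose transporter. Slc2a1 (ENSMUSG00000028645, GRCm38 chr4:119108711-119137983) had 8120, 5865, 6030 and 7939 normalized counts in Opn5-null A to D, against 2343, 3173, 2656 and 2628 in wild-type A to D. The groups did not overlap, and the log2 fold change was 1.36 ± 0.14 (SE), adjusted p = 0.000312 with limma. Slc2a3 encodes GLUT3, a high-affinity transporter of neurons and leukocytes. It had 5948, 1808, 454 and 1723 normalized counts in Opn5-null A to D, against 108, 235, 90.8 and 113 in wild-type A to D. Every Opn5-null library lay above every wild-type library, but the Opn5-null libraries themselves spanned 13.1-fold, with A highest and C lowest. The log2 fold change of Slc2a3 was 3.73 (adjusted p = 0.00482, limma), and the ratio of its means was 18.1, or 9.7 without Opn5-null A. Slc2a6 encodes GLUT6, a transporter held on intracellular membranes. It had 1416, 894, 475 and 952 normalized counts in Opn5-null A to D, against 73.6, 99.2, 76.5 and 100 in wild-type A to D, with no overlap. Its log2 fold change was 3.32 (adjusted p = 0.000214, limma) and the ratio of its means 10.7.

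The 3 transporters made up different shares of their summed level in the 2 genotypes. Per kilobase of transcript, Slc2a1 was 69.7 ± 13% of the sum of the 3 in Opn5-null libraries and 91.8 ± 1.29% in wild-type libraries (SD, n = 4 each). Slc2a3 was 16.9 ± 11.4% in Opn5-null, against 3.72 ± 1.25% in wild-type libraries, and its share in Opn5-null C, 5.24%, lay within the wild-type range of 2.63 to 5.51%. Slc2a6 was 13.4 ± 2.33% in Opn5-null, against 4.53 ± 0.534% in wild-type libraries, with no overlap. The log2 ratio of Slc2a1 to Slc2a3 counts differed by -2.37 between the genotypes (exact two-sided permutation test, p = 0.0286, adjusted p = 0.0371 over 13 ratios). With 4 libraries against 4, 0.0286 is the smallest p the test allows.

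**Figure D2:**
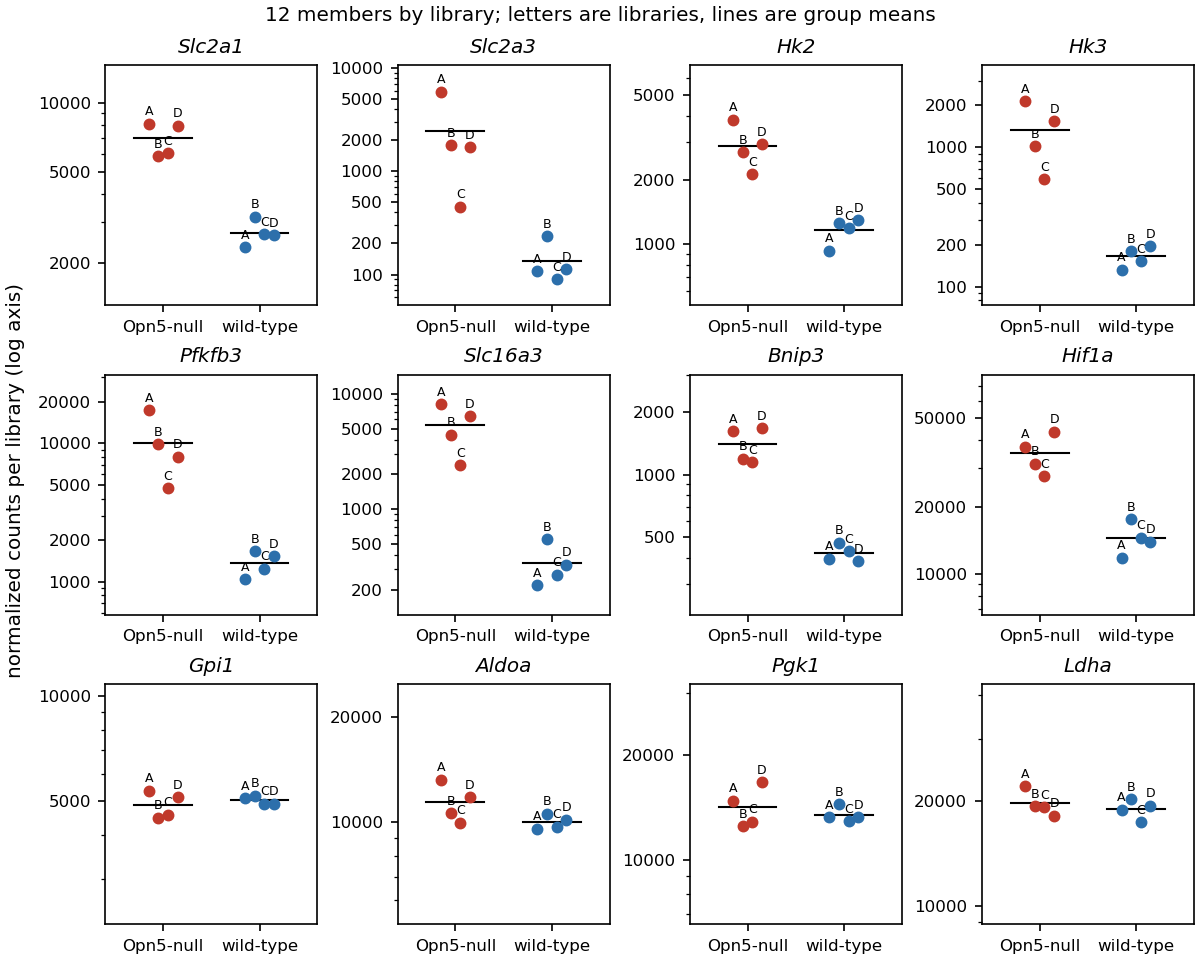
Normalized counts of 12 members in each library on log axes, Opn5-null left and wild-type right, with letters for libraries and lines for group means. In Slc2a1 to Hif1a the groups do not overlap, whereas in Gpi1, Aldoa, Pgk1 and Ldha they do.

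Hexokinases catalyse the first step of glycolysis, and 3 of 3 listed rose, against 18.8% of all genes. Hk1, the housekeeping form bound to mitochondria, had 2456, 1968, 1673 and 2873 normalized counts in Opn5-null A to D, against 1462, 1401, 1387 and 1414 in wild-type A to D. The wild-type libraries of Hk1 lay within 1.05-fold of each other, below all Opn5-null libraries, and the log2 fold change was 0.63 (adjusted p = 0.015, limma). Hk2, the inducible form and a known HIF target, had 3824, 2689, 2123 and 2936 normalized counts in Opn5-null A to D, against 930, 1248, 1186 and 1293 in wild-type A to D. The lowest Opn5-null library of Hk2 was above the highest wild-type library, with a log2 fold change of 1.29 (adjusted p = 0.00121, limma). Hk3, the form found mostly in myeloid cells, had 2153, 1022, 588 and 1542 normalized counts in Opn5-null A to D, against 133, 181, 152 and 196 in wild-type A to D. Its log2 fold change was 2.85 (adjusted p = 0.000845, limma). Its Opn5-null libraries spanned 3.66-fold, in the order A, D, B, C shared by the summed neutrophil and the summed monocyte and macrophage markers. Hk3 overlaps Unc5a on the opposite strand, which averaged 193 normalized counts over all libraries, beside a mean of 166 for Hk3 in wild-type libraries.

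The hexokinases rose unequally. Per kilobase, Hk3 made up 25.8 ± 6.34% of the 3 in Opn5-null libraries and 8.12 ± 1% in wild-type libraries, and Hk1 made up 39.1 ± 5.21% in Opn5-null, against 58.5 ± 4.07% in wild-type libraries (SD, n = 4 each). The share of Hk2 overlapped, at 35.1 ± 3.56% in Opn5-null, against 33.4 ± 3.21% in wild-type libraries. The log2 ratio of Hk3 to Hk1 was 2.22 higher in Opn5-null corneas and that of Hk2 to Hk1 0.66 higher (exact permutation test, adjusted p = 0.0371 for each over 13 ratios). Gpi1, the isomerase that turns glucose 6-phosphate into fructose 6-phosphate, averaged 4892 ± 425 normalized counts in Opn5-null, against 5032 ± 134 in wild-type corneas. Its log2 fold change was -0.04 with a 95% interval of -0.22 to 0.13 (adjusted p = 0.69, limma), and under quantile normalization it was called lower (adjusted p = 0.0232).

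Phosphofructokinase is the committed step of glycolysis. Its liver form Pfkl rose by 0.50 on the log2 scale (adjusted p = 0.00408, limma), with 2169 to 2770 normalized counts in Opn5-null, against 1633 to 1770 in wild-type libraries. Its platelet form Pfkp had 3054, 2010, 1675 and 2380 normalized counts in Opn5-null A to D, against 1043, 1100, 965 and 1118 in wild-type A to D. The groups of Pfkp did not overlap, and its log2 fold change was 1.08 (adjusted p = 0.00207, limma). Its muscle form Pfkm overlapped between the genotypes, with 273 to 589 normalized counts in Opn5-null, against 422 to 518 in wild-type libraries (log2 fold change -0.22, 95% interval -0.73 to 0.28, adjusted p = 0.472). Pfkp and Pfkm overlap the genes Pitrm1 and Senp1 on the opposite strand, whose means over all libraries were 1839 and 1628 normalized counts beside 1668 and 436 for Pfkp and Pfkm, and how strand was used in the counting was not given in the sources used here. Per kilobase, Pfkp formed 40.6 ± 4.72% of the 3 forms in Opn5-null, against 29.2 ± 1.79% in wild-type libraries, and Pfkm 10.7 ± 3.59% in Opn5-null, against 18.3 ± 1.73% in wild-type libraries.

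The PFKFB enzymes set the level of fructose 2,6-bisphosphate, which activates phosphofructokinase, and Pfkfb3 is the family member with the highest kinase activity. Pfkfb3 had 17378, 9912, 4744 and 8024 normalized counts in Opn5-null A to D, against 1046, 1660, 1250 and 1528 in wild-type A to D. Even the lowest Opn5-null library, C, exceeded the highest wild-type library, and the log2 fold change was 2.74 (adjusted p = 0.000909, limma). Pfkfb4 had 1237, 1190, 870 and 1013 normalized counts in Opn5-null A to D, against 739, 653, 670 and 682 in wild-type A to D, with no overlap and a log2 fold change of 0.64 (adjusted p = 0.00438, limma). Pfkfb3 made up 85.9 ± 4.47% of the pair per kilobase in Opn5-null, against 59.6 ± 6.13% in wild-type libraries. Its log2 ratio to Pfkfb4 was 2.10 higher in Opn5-null corneas (exact permutation test, adjusted p = 0.0371).

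**Figure D3:**
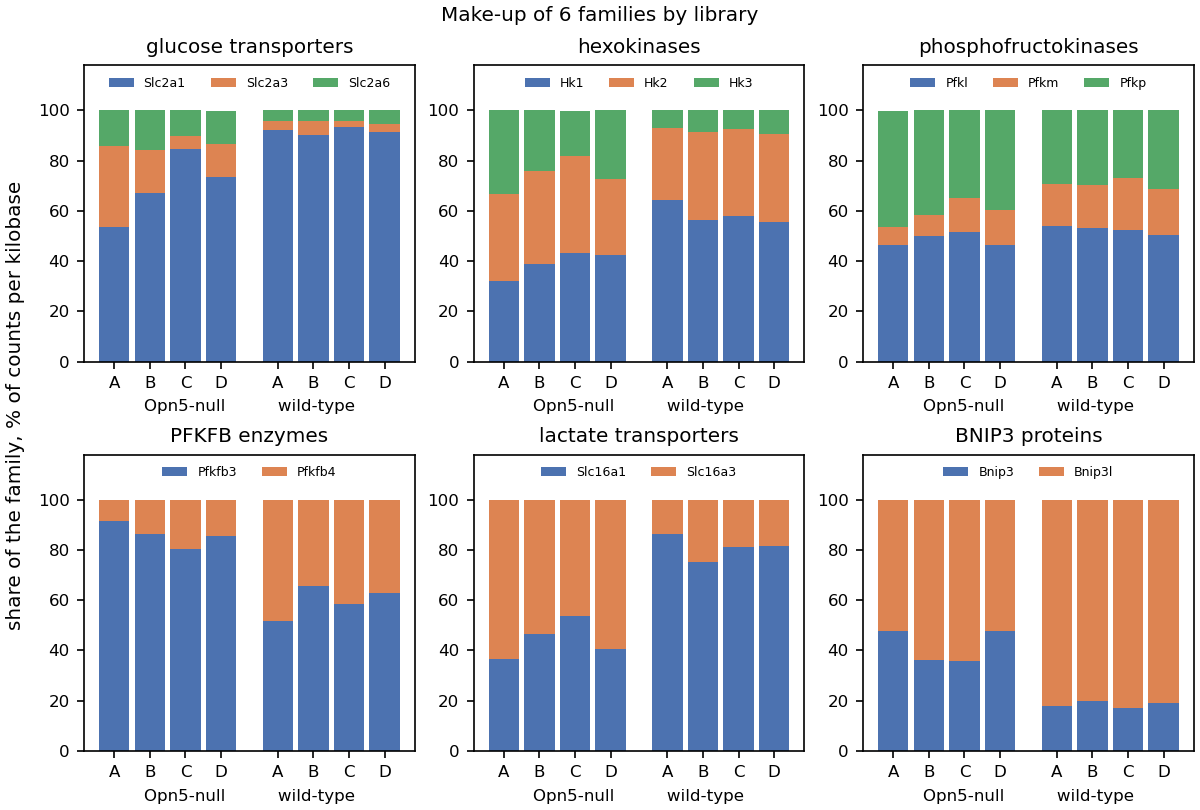
Share of each member in 6 families, in percent of the family's normalized counts per kilobase of transcript, as stacked bars per library, Opn5-null A to D left and wild-type A to D right. The Pfkfb3 share is 80.4 to 91.4% in Opn5-null, against 51.6 to 65.7% in wild-type libraries, and the Slc16a3 share 46.3 to 63.5% in Opn5-null, against 13.6 to 24.8% in wild-type libraries.

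Of 9 members from aldolase to pyruvate kinase, 2 rose (22.2%, against 18.8% of all genes) and Aldoc fell (11.1%, against 13.5%). These shares were close to those of all genes, and the median log2 fold change of the 9 was 0.14. The most abundant members were among them. Per kilobase, Gapdh stood at 18738 ± 1394 in Opn5-null, against 16115 ± 799 in wild-type corneas and Pkm at 15098 ± 2696 in Opn5-null, against 10075 ± 547 in wild-type corneas. Pkm, the pyruvate kinase that completes the pathway, had 39506, 33118, 29783 and 44471 normalized counts in Opn5-null A to D, against 23217, 26129, 23642 and 25021 in wild-type A to D. The groups did not overlap and the log2 fold change was 0.57 (adjusted p = 0.0114, limma); gene counts do not separate the PKM1 and PKM2 splice forms. Pgam1, the mutase before enolase, had 3460, 3038, 3270 and 3270 normalized counts in Opn5-null A to D, against 2744, 2917, 2703 and 2743 in wild-type A to D. Its log2 fold change was 0.23 (adjusted p = 0.0299, limma), and the call was lost under quantile normalization (adjusted p = 0.266), under upper-quartile scaling (0.193), and without Opn5-null A (0.0572) or wild-type A (0.0903), C (0.0812) or D (0.0814).

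Aldoc, the aldolase form of brain, moved the other way. It had 143, 191, 227 and 165 normalized counts in Opn5-null A to D, against 307, 275, 381 and 250 in wild-type A to D. No library of one genotype reached the other, and the log2 fold change was -0.74 (adjusted p = 0.0147, limma). Aldoc was 0.88 ± 0.273% of both aldolases per kilobase in Opn5-null, against 1.62 ± 0.35% in wild-type libraries. Aldoa, the main aldolase, averaged 11419 ± 1429 normalized counts in Opn5-null, against 10019 ± 451 in wild-type corneas (log2 fold change 0.18, adjusted p = 0.186; -0.01 under quantile normalization).

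The other enzymes of this stretch were not called. Gapdh, which oxidises glyceraldehyde 3-phosphate, had 25030 to 29159 normalized counts in Opn5-null, against 21819 to 24387 in wild-type libraries. Its groups did not overlap, yet its log2 fold change of 0.22 had an adjusted p of 0.0762 with limma and 0.0203 with DESeq2 on recovered reads. Tpi1, which interconverts the triose phosphates, had a log2 fold change of 0.14 with a 95% interval of -0.05 to 0.34, and of -0.03 under quantile normalization. Pgk1, the first ATP-yielding step, averaged 14197 ± 1919 normalized counts in Opn5-null, against 13467 ± 683 in wild-type corneas, with a log2 fold change of 0.07 (95% interval -0.17 to 0.30), and of -0.13 and -0.05 under quantile and upper-quartile scaling. Eno2, the enolase of neurons, had 113 to 249 normalized counts in Opn5-null, against 144 to 202 in wild-type libraries (log2 fold change -0.24, adjusted p = 0.49).

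Eno1 is the main enolase, and the reads assigned to its near-identical copies differed sharply between the genotypes. Eno1 and Eno1b together averaged 12050 ± 1656 normalized counts in Opn5-null, against 10941 ± 678 in wild-type corneas, with a log2 fold change of 0.13 (95% interval -0.12 to 0.38, adjusted p = 0.38; -0.05 under quantile normalization). Eno1 by itself was at 11250 ± 1524 in Opn5-null, against 10937 ± 676 in wild-type corneas. Eno1b had 942, 724, 656 and 877 normalized counts in Opn5-null A to D, against 2.05, 6.43, 2.87 and 3.74 in wild-type A to D. The processed pseudogene Gm4735 had 662, 597, 514 and 691 in Opn5-null A to D, against 18.4, 25.7, 22 and 20.6 in wild-type A to D. Fitted as rows of their own, Eno1b had a log2 fold change of 7.46 (adjusted p = 3.28e-06, limma) and Gm4735 one of 4.77 (adjusted p = 1.48e-06, limma).

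Eno1b was a steady 6.08 to 6.54% of the 3 rows in Opn5-null libraries and 0.0194 to 0.0537% in wild-type libraries. Gm4735 was 4.6 to 5.14% of the 3 rows in Opn5-null libraries and 0.175 to 0.215% in wild-type libraries. The transcript of Eno1 is 99.5% identical to that of Eno1b over 1736 bases and 99.6% identical to Gm4735 over 1302 bases. Reads can therefore be split between the 3 rows in ways the counting cannot resolve, and each row by itself is uncertain. Eno1 lies on chromosome 4, Eno1b on chromosome 18 and Gm4735 on chromosome 2 (GRCm38). The sum of the 3 rows was 10797 to 14403 normalized counts in Opn5-null, against 10534 to 11979 in wild-type libraries, and these ranges overlapped. Whether Eno1b and Gm4735 differ in transcription or in sequence between the mice was not tested.

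**Figure D4:**
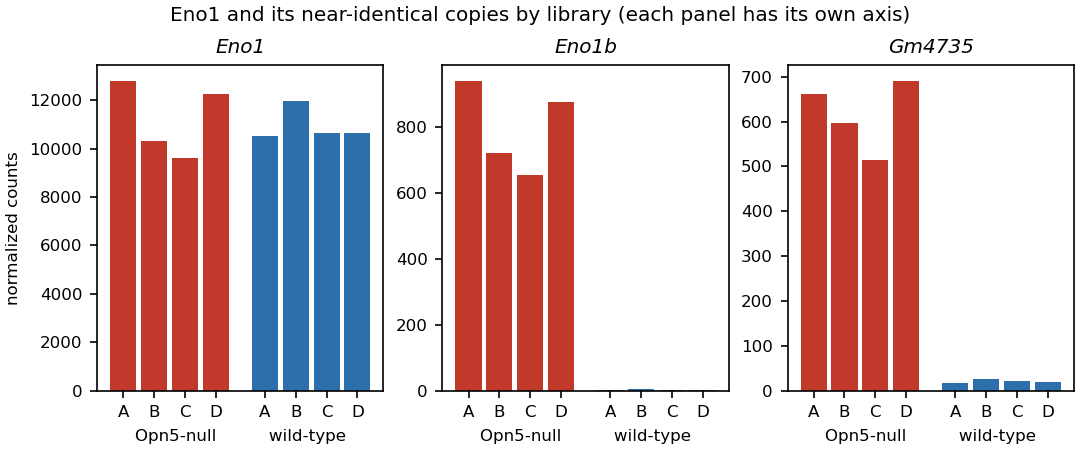
Normalized counts of Eno1, Eno1b and Gm4735 in each library, Opn5-null A to D left (red) and wild-type A to D right (blue), on separate linear axes that start at 0. Eno1 overlaps between the genotypes, whereas Eno1b is at 656 to 942 in Opn5-null libraries and 2.05 to 6.43 in wild-type libraries.

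The transporters that export lactate rose, while the enzymes that make it were not called. Ldha, the main lactate dehydrogenase and a classic HIF target, had 22028, 19306, 19152 and 18135 normalized counts in Opn5-null A to D, against 18841, 20229, 17345 and 19356 in wild-type A to D. The groups overlapped and the log2 fold change was 0.05 with a 95% interval of -0.15 to 0.25 (adjusted p = 0.682, limma), and of -0.15 and -0.06 under quantile and upper-quartile scaling. With palindromes counted on both strands, its promoter, shown above, held the most ACGTG matches of the 4 printed. Those 4 were picked, so their counts are no test of a link to response. Ldhb, the heart form, had 200 to 290 normalized counts in Opn5-null, against 252 to 331 in wild-type libraries, with a log2 fold change of -0.37 (adjusted p = 0.0862, limma). Ldhb was called lower under quantile normalization (adjusted p = 0.036), upper-quartile scaling (0.0458) and without Opn5-null C (0.0144), the library in which it was highest. Per kilobase, Ldha made up 98.5 ± 0.339% of the pair in Opn5-null, against 98 ± 0.187% in wild-type libraries, and the log2 ratio of Ldha to Ldhb did not pass its test (difference 0.42, exact permutation test, adjusted p = 0.101).

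Slc16a3 encodes MCT4, a lactate exporter of strongly glycolytic cells and a HIF target. Slc16a3 (ENSMUSG00000025161, GRCm38 chr11:120948480-120960868) had 8141, 4425, 2422 and 6388 normalized counts in Opn5-null A to D, against 219, 546, 271 and 331 in wild-type A to D. The groups were far apart, with a log2 fold change of 3.91 (adjusted p = 0.000347, limma), and a ratio of means of 15.6. Slc16a1 encodes MCT1, the more widespread lactate transporter. It had 4780, 3958, 2871 and 4479 normalized counts in Opn5-null A to D, against 1423, 1690, 1202 and 1486 in wild-type A to D, with a log2 fold change of 1.46 (adjusted p = 0.000541, limma). Per kilobase, Slc16a3 made up 55.6 ± 7.49% of the pair in Opn5-null, against 18.9 ± 4.6% in wild-type libraries, and the log2 ratio of Slc16a3 to Slc16a1 was 2.46 higher in Opn5-null corneas (exact permutation test, adjusted p = 0.0371). Pdk1, a kinase that inhibits pyruvate dehydrogenase, averaged 1166 ± 116 normalized counts in Opn5-null, against 1037 ± 127 in wild-type corneas (log2 fold change 0.17, 95% interval -0.08 to 0.42, adjusted p = 0.262).

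Hif1a, the gene of the oxygen-regulated HIF-1α subunit, rose. It had 37328, 31401, 27551 and 43627 normalized counts in Opn5-null A to D, against 11862, 17691, 14575 and 13988 in wild-type A to D. The lowest Opn5-null library was above the highest wild-type library, and the log2 fold change was 1.26 (adjusted p = 0.000942, limma). HIF-1α protein, which the hydroxylases control, was not measured. Egln1 encodes PHD2, the main HIF prolyl hydroxylase, and had 1460 to 1747 normalized counts in Opn5-null, against 1166 to 1313 in wild-type libraries (log2 fold change 0.36, adjusted p = 0.00971, limma). Egln3 encodes PHD3, a hydroxylase that HIF itself induces, and had 1985, 2756, 3127 and 1324 normalized counts in Opn5-null A to D, against 1994, 1722, 3046 and 1540 in wild-type A to D. Its libraries overlapped widely, with a log2 fold change of 0.12 (95% interval -0.56 to 0.81, adjusted p = 0.782), and Opn5-null D, which had the lowest epithelial markers, was also lowest in Egln3.

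Of 8 further HIF targets, 7 rose (87.5%, against 18.8% of all genes), with a median log2 fold change of 1.05 over the 8. Bnip3, a mitochondrial receptor for mitophagy, had 1621, 1195, 1148 and 1675 normalized counts in Opn5-null A to D, against 395, 471, 430 and 383 in wild-type A to D (ENSMUSG00000078566, GRCm38 chr7:138890836-138909519). These libraries were tight within each genotype and well apart between them, and the log2 fold change was 1.73 ± 0.14 (SE), adjusted p = 0.000126, the lowest of the 37 rows. Its relative Bnip3l had 3247, 3889, 3799 and 3360 normalized counts in Opn5-null A to D, against 3343, 3476, 3865 and 3031 in wild-type A to D. Bnip3l overlapped, with a log2 fold change of 0.06 (adjusted p = 0.661), and of -0.09 and -0.05 under quantile and upper-quartile scaling. The log2 ratio of Bnip3 to Bnip3l was 1.67 higher in Opn5-null corneas (exact permutation test, adjusted p = 0.0371), and Bnip3 made up 41.9 ± 6.9% of the pair per kilobase in Opn5-null, against 18.5 ± 1.29% in wild-type libraries.

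P4ha1 and P4ha2 encode the collagen prolyl 4-hydroxylases, which let collagen fold in the endoplasmic reticulum. P4ha1 had 4156, 3529, 3469 and 5020 normalized counts in Opn5-null A to D, against 1741, 1947, 1992 and 1896 in wild-type A to D, with no overlap and a log2 fold change of 1.08 (adjusted p = 0.000469, limma). P4ha2 had 529, 456, 526 and 648 normalized counts in Opn5-null A to D, against 424, 343, 312 and 435 in wild-type A to D, a log2 fold change of 0.51 (adjusted p = 0.0279, limma). The call of P4ha2 was lost under quantile normalization (adjusted p = 0.0566), upper-quartile scaling (0.0755), and without Opn5-null A (0.0539), wild-type B (0.0733) or wild-type C (0.0743). The log2 ratio of P4ha1 to P4ha2 was 0.57 higher in Opn5-null corneas (exact permutation test, adjusted p = 0.0371).

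The remaining 4 HIF targets rose in every Opn5-null library relative to every wild-type library. Adm encodes adrenomedullin, a vasodilator peptide, and had 1963 to 2895 normalized counts in Opn5-null, against 981 to 1387 in wild-type libraries (log2 fold change 1.17, adjusted p = 0.000961, limma). Ero1l, the oxidase that drives disulfide formation in the endoplasmic reticulum, had 2792 to 4414 in Opn5-null, against 1464 to 1766 in wild-type libraries (log2 fold change 1.03, adjusted p = 0.000943, limma). Ndrg1, a stress-induced cytosolic protein, had 1325 to 2032 in Opn5-null, against 790 to 999 in wild-type libraries (log2 fold change 0.76, adjusted p = 0.00455, limma). Ankrd37, an ankyrin-repeat protein induced by hypoxia, had the lowest level per kilobase of the 8, with 161, 105, 135 and 129 normalized counts in Opn5-null A to D, against 42.9, 57.9, 22.9 and 34.6 in wild-type A to D. Its log2 fold change was 1.78 (adjusted p = 0.00205, limma), and it overlaps Ufsp2 on the opposite strand, which averaged 920 normalized counts over all libraries.

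Across the 13 pairs of related members compared by ratio, 10 passed the exact permutation test at an adjusted p of 0.0371. Besides the pairs given above, the log2 ratio of Pfkp to Pfkl was 0.58 higher in Opn5-null corneas, that of Pfkm to Pfkl differed by -0.72 and that of Aldoc to Aldoa by -0.92. Eno2 to the summed Eno1 (difference -0.37, exact permutation test, adjusted p = 0.186) and Egln3 to Egln1 (difference -0.23, exact permutation test, adjusted p = 0.571) did not pass. Without any 1 Opn5-null library, 9 or 10 ratios passed, and without any 1 wild-type library 0 passed by the exact permutation test and 5 had an unadjusted p below 0.05. All 13 ratios kept their direction without each library in turn.

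Of the 23 members that rose, Opn5-null A was the highest library in 15 and D in 7, and Opn5-null C was the lowest in 15 and B in 8. Over all 37 member rows, A was the highest Opn5-null library in 20 and C the lowest in 18. The normalized counts of all genes summed to 28325797 in Opn5-null A, against 23380693 to 25023881 in the other Opn5-null libraries. Slc2a3, Hk3, Pfkfb3 and Slc16a3 spanned 13.1-fold, 3.66-fold, 3.66-fold and 3.36-fold among Opn5-null libraries. In 7 of the 23, including Slc2a6, Hk2, Hk3, Slc16a1 and Slc16a3, the Opn5-null libraries stood in the order A, D, B, C of the summed neutrophil markers. These markers were 201407, 118104, 60561 and 148293 normalized counts in Opn5-null A to D, against 21145, 38515, 20444 and 33486 in wild-type A to D. The summed monocyte and macrophage markers stood in the same order, at 113477, 67938, 42039 and 81374 in Opn5-null A to D. Over all 37 member rows, 10 stood in this order, among them Aldoa, Gapdh and the summed Eno1, which were not called. How many of all genes share the order, or are highest in Opn5-null A or lowest in Opn5-null C, was not counted. Without Opn5-null A, 21 members were called higher, and without Opn5-null D, the library lowest in epithelial markers, 23 were.

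**Figure D5:**
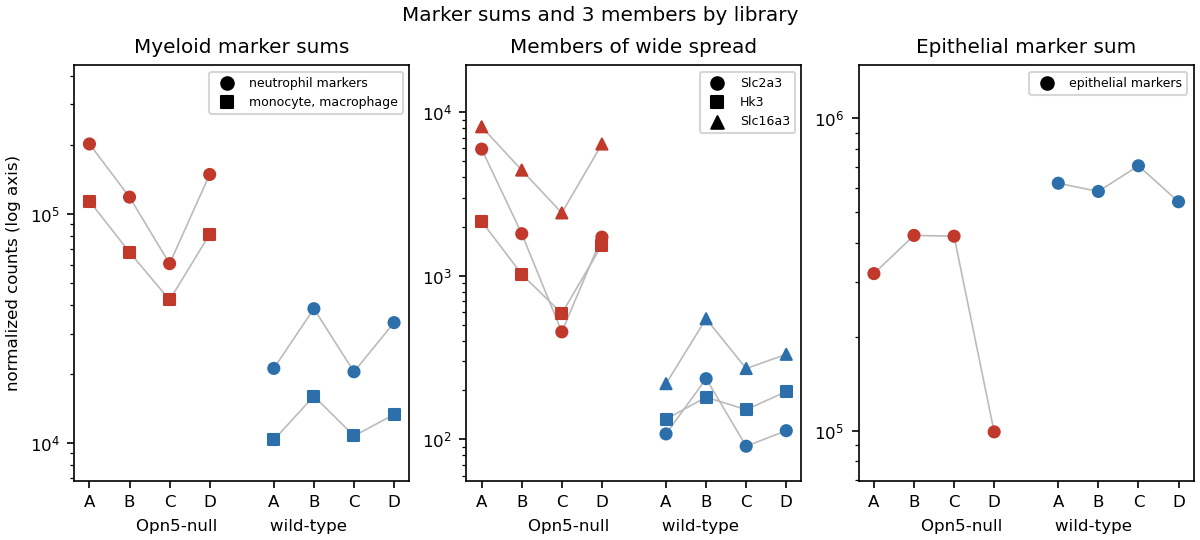
Summed neutrophil and monocyte or macrophage markers (left), Slc2a3, Hk3 and Slc16a3 (middle) and summed corneal epithelial markers (right) per library, in normalized counts on log axes, Opn5-null A to D left (red) and wild-type A to D right (blue). Among Opn5-null libraries, A is highest and C lowest in both myeloid sums and in the 3 members, and D is lowest in the epithelial sum.

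Genes of the same pathways outside the 38 were counted from lists, in both directions. Like the members, the lists were chosen with earlier results of these data known. Over 7 such lists 124 genes were tested, of which 35 (28.2%) were called higher and 20 (16.1%) lower, against 18.8% and 13.5% of all genes. Under quantile normalization the counts were 25 higher and 29 lower, without wild-type A they were 23 and 7, without wild-type B 27 and 11, without wild-type C 24 and 9, and without wild-type D 24 and 10. Without Opn5-null A they were 30 and 12. The rule for naming took 35 of them, and 15 kept their call under every alternative run, among them Pfkfb2, Slc2a13, Pcx, Pdp1, Pygl, Hif3a, Vhl, Cited2, Hilpda and Tfrc, while Tkt, for one, lost its call under 9 of 19. Of 11 other glycolysis genes, 0 were called higher by limma and 3 (27.3%) lower (median log2 fold change -0.44): Pfkfb2, a further PFKFB enzyme, by -1.09 (adjusted p = 0.00601), Bpgm, which makes 2,3-bisphosphoglycerate, by -0.66 (0.0448), and Tigar, a fructose bisphosphatase, by -0.27 (0.0277). Of these 11, 1 had an unadjusted p below 0.05 and a higher level in Opn5-null corneas, and edgeR called 0 and DESeq2 0 higher. The count of lower calls was 6 under quantile and 5 under upper-quartile scaling, and 1 without wild-type A, C or D and with the letters as a replicate block, in which Bpgm and Tigar were not called. Pfkfb2 had 272, 388, 388 and 201 normalized counts in Opn5-null A to D, against 761, 589, 650 and 589 in wild-type A to D, opposite to its relatives Pfkfb3 and Pfkfb4. Of 14 other glucose and lactate transport genes, 5 rose (35.7%) and 1 fell (7.14%), with 3 rising without Opn5-null B or wild-type A or D and 2 under quantile normalization. Among them were Bsg, the chaperone of MCT1 and MCT4 at the cell surface, higher by 0.54 (adjusted p = 0.0142, not called under quantile normalization), and Slc2a13, a myo-inositol transporter, by 1.37 (0.00111).

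The pentose phosphate pathway branches off glycolysis, and pyruvate dehydrogenase acts on its product, pyruvate. Of 12 pentose phosphate genes, 0 were called higher by limma, against 18.8% of all genes, and 5 (41.7%, against 13.5%) were called lower (median log2 fold change -0.26). Among these were Tkt, transketolase and an abundant enzyme of the corneal epithelium, by -0.94 (adjusted p = 0.049), Rpia by -0.59 (0.0274) and G6pdx, the entry enzyme, by -0.48 (0.0438). The lower calls numbered 1 without wild-type A or D, 0 without wild-type B or C, and 2 and 3 without Opn5-null A and D, and Tkt, Rpia and G6pdx were not called without any 1 wild-type library. Of these 12, 0 had an unadjusted p below 0.05 and a higher level in Opn5-null corneas, and edgeR called 0 and DESeq2 0 higher. Tkt had 5209, 9754, 10523 and 5083 normalized counts in Opn5-null A to D, against 13040, 11374, 21976 and 11242 in wild-type A to D. Of 11 genes around pyruvate dehydrogenase, 2 rose (18.2%, close to the 18.8% of all genes) and 5 fell (45.5%, against 13.5%). The largest falls were Pcx, pyruvate carboxylase, by -0.96 (adjusted p = 0.0141), and Pdk2, by -0.88 (0.0292). The dehydrogenase phosphatases Pdp1 and Pdp2 fell by 0.69 and 0.86 on the log2 scale (adjusted p = 0.00113 and 0.0304, limma). Under quantile and upper-quartile scaling and with the letters as a replicate block, 0 of these 11 were called higher. Without wild-type A, 0 were called higher and 2 lower, without wild-type C or D 0 and 3, without wild-type B 2 and 3, without Opn5-null A 2 and 3, and without Opn5-null B 1 and 4. Pdk2 and Pdp2 were among the calls lost without wild-type A or C, while Pcx and Pdp1 were called in each. The epithelial markers were lower in the same Opn5-null libraries, and their part in these values was not tested. Of 18 glycogen genes, 3 rose (16.7%) and 2 fell (11.1%), shares close to those of all genes. Pygl, the glycogen phosphorylase of liver and leukocytes, had 1890, 1625, 1009 and 1919 normalized counts in Opn5-null A to D, against 349, 560, 532 and 521 in wild-type A to D (log2 fold change 1.69, adjusted p = 0.00118, limma).

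Among 16 other genes of oxygen sensing, 5 rose (31.2%, against 18.8% of all genes) and 2 fell (12.5%, against 13.5%). The higher count was 3 under quantile and upper-quartile scaling and without Opn5-null A or D or any 1 wild-type library, and the lower count was 1 without each of these 6 libraries. Hif3a, whose short forms inhibit HIF, had 13.2, 5.93, 25.9 and 33.1 normalized counts in Opn5-null A to D, against 97.1, 88.2, 110 and 98.1 in wild-type A to D, a log2 fold change of -2.52 (adjusted p = 0.00427, limma). Epas1, which encodes HIF-2α, fell by 0.51 on the log2 scale (adjusted p = 0.0379, limma), but its libraries overlapped and the call was lost without Opn5-null A or D or any 1 wild-type library. Vhl, the ubiquitin ligase subunit that recognises hydroxylated HIF, rose by 0.63 (adjusted p = 0.000861) and Cited2, which competes with HIF for its coactivator, by 0.71 (0.00239). Of 42 further HIF targets, 20 rose (47.6%) and 2 fell (4.76%), with a median log2 fold change of 0.41. The higher count was 18 under quantile and 17 under upper-quartile scaling, with 4 lower under each. With single libraries left out it ran from 15, without wild-type A, C or D, to 21, without Opn5-null C. Hilpda, a lipid droplet protein, had 2928, 1026, 373 and 1478 normalized counts in Opn5-null A to D, against 86.9, 113, 72.6 and 77.5 in wild-type A to D (log2 fold change 3.70, adjusted p = 0.00158, limma). Nos2 and Cxcr4, which are also genes of inflammatory cells, had log2 fold changes of 4.57 and 3.63, whereas Tfrc, the transferrin receptor, fell by 0.92 (adjusted p = 0.000105, limma).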

How the data were processed

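The table deposited by the authors holds a signal value for each gene in each library. From the values, these are counts scaled by a library size factor. Dividing each column by the value of 1 read gave whole reads for 100% of values, within 0.001. RSEM 1.3.1 was used, per the submitters' processing notes, and the ribosomal and globin RNA depletion kit is a stranded one, per the labels' protocols. Which aligner, build and strand option were used is not given in the sources used here. Log2 fold changes and p-values of the authors are also deposited, and they were not used for calls. By the adjusted p-values of the authors' deposited table, 25 of the 38 members were higher and 1 lower, as were 3516 and 2716 of all 16082 genes.

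The main test was limma 3.58.1 (R 4.3.3; trended, robust variances) on log2(value + 1), over the 16084 rows that reached 1 in at least 4 libraries, with Benjamini-Hochberg adjustment and a threshold of 0.05. Adding the pseudocount of 1 makes the fold changes of low genes too small. The log2 ratios of 13 pairs were tested by an exact two-sided permutation test over libraries, adjusted over the 13. edgeR 4.0.16 (quasi-likelihood) on the recovered reads called 3003 genes higher and 2045 lower of 15935, and DESeq2 1.42.0 was a further alternative. Levels per kilobase divide normalized counts by the longest principal transcript of each gene in GENCODE M21 (GRCm38), in which 16055 of 16091 identifiers were found. That annotation also gave coordinates and overlapping genes. Near-identical copies were sought with BLAST 2.17.0 at 95% identity or more over at least 500 bases.

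The members and lists were chosen with earlier results of these data known. Every member is named, and from each further list up to 4 called genes per direction with the largest change were taken, of which the text gives a part. Alternatives were quantile, upper-quartile and TMM scaling, other filters, a pseudocount of 0.1, a replicate block, separate rows for Eno1 and Eno1b, and each library left out.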

Additional observations from a re-analysis of the deposited data

Results flagged for a closer look

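In each genotype the highest and lowest library of every member was compared with the other 3, and in 4 of the 74 groups of 4 libraries 1 library lay far from the rest. Chance flags about 1 in 20 such groups. Slc2a3 was at 235 normalized counts in wild-type B, against 90.8 to 113 in the other wild-type libraries. Eno2 was at 144 in wild-type A, against 193 to 202 in the others. Ldhb was at 290 in Opn5-null C, against 200 to 212 in the other Opn5-null libraries, and was called lower without that library (adjusted p = 0.0144, limma). The sum of Eno1 and Eno1b was at 11953 in wild-type B, against 10515 to 10658 in the others.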

How the results depend on the processing

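The count of members called higher was 21 under quantile and upper-quartile scaling, 24 with DESeq2, which added Gapdh, 24 with Eno1 and Eno1b as separate rows, and 21 to 23 without each library in turn. Without both D libraries it was 22. Members called lower were 3 under quantile and 2 under upper-quartile scaling, and 1 to 2 without each library. The median of the members was 0.43 under quantile and 0.45 under upper-quartile scaling, and 0.47 to 0.66 without each library. Genes called lower were 3741 under quantile and 3666 under upper-quartile scaling, and 1078 to 2540 without each library, with 1078, 1242 and 1288 without wild-type A, C and D. The isoform ratios that passed were 0 to 10 without each library, an alternative added after seeing the data. Without a wild-type library the exact permutation test gave no p-value below 0.0286. Only 5 of the 13 ratios then had an unadjusted p below 0.05, too few for any to pass the adjustment from that lowest p. With 4 Opn5-null libraries against 3 wild-type ones, the split by genotype need not give the largest difference in means, even where the genotypes do not overlap. The loss of these calls therefore does not by itself show that a ratio rests on 1 wild-type library. How far this lowered the count was not tested. Signs turned only in members that were not called. Under quantile normalization Aldoa was at -0.01, Tpi1 at -0.03, Pgk1 at -0.13, Ldha at -0.15, Bnip3l at -0.09 and the summed Eno1 at -0.05, and under upper-quartile scaling Pgk1 was at -0.05, Ldha at -0.06 and Bnip3l at -0.05. Without each library in turn Ldha ranged from -0.00 (without Opn5-null A) to 0.09, Egln3 from -0.05 (without Opn5-null C) to 0.36, with -0.00 without wild-type D, and Pgk1 from -0.01 (without Opn5-null D) to 0.13, with -0.02 without both D libraries. The cause was not tested. With the letters as a replicate block 22 members were called higher, with Pgam1 not called (adjusted p = 0.0998), and no other member's call changed. Same-lettered libraries deviated with correlations of -0.156, -0.128, 0.138 and 0.131, and unlike-lettered ones with -0.284 to 0.325. These values show no sign of pairing by letter, but with 4 libraries a genotype they cannot exclude it. The 7 further lists held 23 to 40 genes called higher and 7 to 29 lower over these alternatives, and 15 of 35 genes chosen from them by the rule kept their call under every one. With 4 libraries a genotype, a member that was not called may still differ, within the intervals given.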
